A study of Mus musculus with 33 samples.

Results

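The genes described here act on brain cholesterol after it has been made: Cyp46a1, Cyp27a1 and Cyp7b1 hydroxylate it or its products, Soat1, Nceh1 and Lipa attach or remove its fatty acid, and Npc1 and Npc2 carry it out of the lysosome. They were taken by symbol, as every probe set annotated to a single gene among these 8. The array annotation names 7 of the 8 genes, of 18193 genes named by single-gene probe sets, and Soat1 (acyl-CoA:cholesterol acyltransferase) was not analysed here. The 7 genes hold 17 of 45037 non-control probe sets, and 14 of the 17 were bright enough to be tested.

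The tissue was the right hippocampus of 33 male mice, whose messenger RNA was read on 1 Affymetrix MOE430 2.0 array each, in 3 groups of 11. The groups were wild-type littermates given vehicle, heterozygous Tg2576 mice given vehicle, and heterozygous Tg2576 mice given TO901317 by oral gavage at 50 mg/kg per day. All animals were on a SJL × C57BL/6J background and 20 weeks old. The labels disagree on the length of dosing (7 or 5 days), and tissue was taken 1 h after the last dose. Tg2576 mice carry human APP with the Swedish mutation under the prion promoter, and the compound TO901317 activates the liver X receptors (LXRs), nuclear receptors for oxysterols. No wild-type animal received TO901317, so the drug comparison is within Tg2576 mice only. Values are MAS5 signals on a linear scale, scaled by the authors to a trimmed mean of 99.97 on every array, with array medians between 19.44 and 28.87. In bulk hippocampus, fewer cells of a type and less RNA per cell cannot be told apart.

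Cholesterol does not cross the blood-brain barrier, so the brain makes its own and removes it mainly after hydroxylation by the neuronal enzyme Cyp46a1 to 24S-hydroxycholesterol, which does cross. That oxysterol is itself a ligand of the LXRs. Cholesterol taken up with lipoproteins is freed from its ester by Lipa in the lysosome and handed from Npc2 to Npc1 for export to other membranes. Loss of either Npc protein causes Niemann-Pick disease type C, in which neurons store sterol in lysosomes.

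The 250 bases before the transcription start are shown for 1 gene of each role, since they show which letters stand upstream of genes that an LXR agonist might or might not move. They are RefSeq sequences of build GRCm38.p6, each written 5′ to 3′ on the strand of the gene. Capitals mark CCAAT boxes (CCAAT or its complement ATTGG), GC boxes (GGGCGG or CCGCCC) and the E-box CACGTG. Cyp46a1, of the turnover genes, lies on the plus strand with its window at chr12:108334066-108334315. Nceh1, of the storage genes, lies on the plus strand with its window at chr3:27182754-27183003. Npc2, of the export genes, lies on the minus strand with its window at chr12:84773113-84773362.
Cyp46a1: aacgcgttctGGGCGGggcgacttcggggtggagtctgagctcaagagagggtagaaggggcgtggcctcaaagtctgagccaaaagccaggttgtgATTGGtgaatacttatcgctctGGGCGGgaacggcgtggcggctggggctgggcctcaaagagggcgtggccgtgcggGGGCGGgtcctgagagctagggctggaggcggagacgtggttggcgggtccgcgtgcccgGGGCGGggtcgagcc
Nceh1: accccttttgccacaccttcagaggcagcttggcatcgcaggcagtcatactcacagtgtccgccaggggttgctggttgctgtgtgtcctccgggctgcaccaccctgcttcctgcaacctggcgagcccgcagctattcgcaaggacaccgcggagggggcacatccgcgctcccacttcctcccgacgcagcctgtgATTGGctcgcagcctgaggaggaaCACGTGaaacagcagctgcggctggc
Npc2: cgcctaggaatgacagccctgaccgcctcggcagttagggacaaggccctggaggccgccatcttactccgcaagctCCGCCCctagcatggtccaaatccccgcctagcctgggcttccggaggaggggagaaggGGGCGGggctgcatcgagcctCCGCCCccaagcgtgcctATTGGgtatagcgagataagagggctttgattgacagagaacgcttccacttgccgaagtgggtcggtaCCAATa
The table used here holds a window for 6 of the 8 genes, Soat1 among them. Motifs were searched on both strands as exact letters, and an AGGTCA within a paired element counts for both. A CCAAT box was in 6 of 6 windows, against 33.8% of 32851 windows of the same length. A GC box was in 3 of 6 (4 times in Cyp46a1, 3 times in Npc2 and 1 time in Cyp27a1), against 32.7%. The E-box was in Nceh1 alone, against 6.02%. The LXR element, a pair of AGGTCA units in the same direction with NNNN between them, was in 0 of 6 windows and in 0.0152% of all. Its unit AGGTCA alone was in 0 of 6 and in 14.02%. The sterol regulatory element, ATCAC joined to CCCAC, was in 0 of 6 and in 0.0731%. The GC content was 67.6% in Cyp46a1, 64% in Nceh1, 62.0% in Npc2, 58.0% in Lipa and 54.0% in Cyp27a1, beside a median of 52.4% over all windows. These matches describe letters within 250 bases and show no binding.

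The genotype comparison and the drug comparison gave the same count for these genes: 0 of 14 probe sets passed the test in either. The test was limma's moderated test on log2(signal + 16), with Benjamini-Hochberg adjustment over 27022 probe sets and a limit of 0.05. In Tg2576 vehicle against wild-type vehicle the background was 0.159% of probe sets called, in Tg2576 TO901317 against Tg2576 vehicle 0.141%, and in Tg2576 TO901317 against wild-type vehicle, where the members' count was also 0 of 14, 0.144%. With so small a share called, a count of 0 among 14 is near the background. Unadjusted p-values below 0.05 numbered 2, 0 and 0 of 14 in the 3 comparisons, beside 9.7%, 10.5% and 8.2% of all probe sets. No member had groups without overlap in any comparison, beside 0.0259%, 0.0074% and 0.0148% of all probe sets. The 3 comparisons share their groups, so their values are given side by side and not as separate evidence.

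Known LXR targets rose with the drug in the same arrays. Abca1, the transporter that moves cholesterol onto apolipoproteins, had a mean signal of 326 ± 53.3 (SD, n = 11) in wild-type, 311 ± 24.0 (n = 11) in vehicle Tg2576 and 488 ± 89.2 (n = 11) in treated Tg2576 mice. Its log2 difference with the drug was 0.61 (SE 0.08, 95% interval 0.44 to 0.77), a 1.52-fold rise with a limma adjusted p of 0.000163. Srebf1, the lipogenic transcription factor, rose by 0.63 on the log2 scale (limma adjusted p 0.000163), with no overlap between the treated and vehicle Tg2576 groups. By an exact rank-sum test the adjusted p of Abca1 was 0.0536, and without 11 arrays high in choroid plexus markers that of Srebf1 was 0.094 in limma. The lower ends of these intervals were 1.36-fold and 1.37-fold, whereas the highest upper end among the 14 member probe sets in the same comparison was 1.18-fold. The labelled transgene could not be checked, because the probe sets named App and Prnp are of the mouse genes: the mouse App signal was 3790, 3533 and 3844 in the 3 groups in that order.

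**Figure D1:**
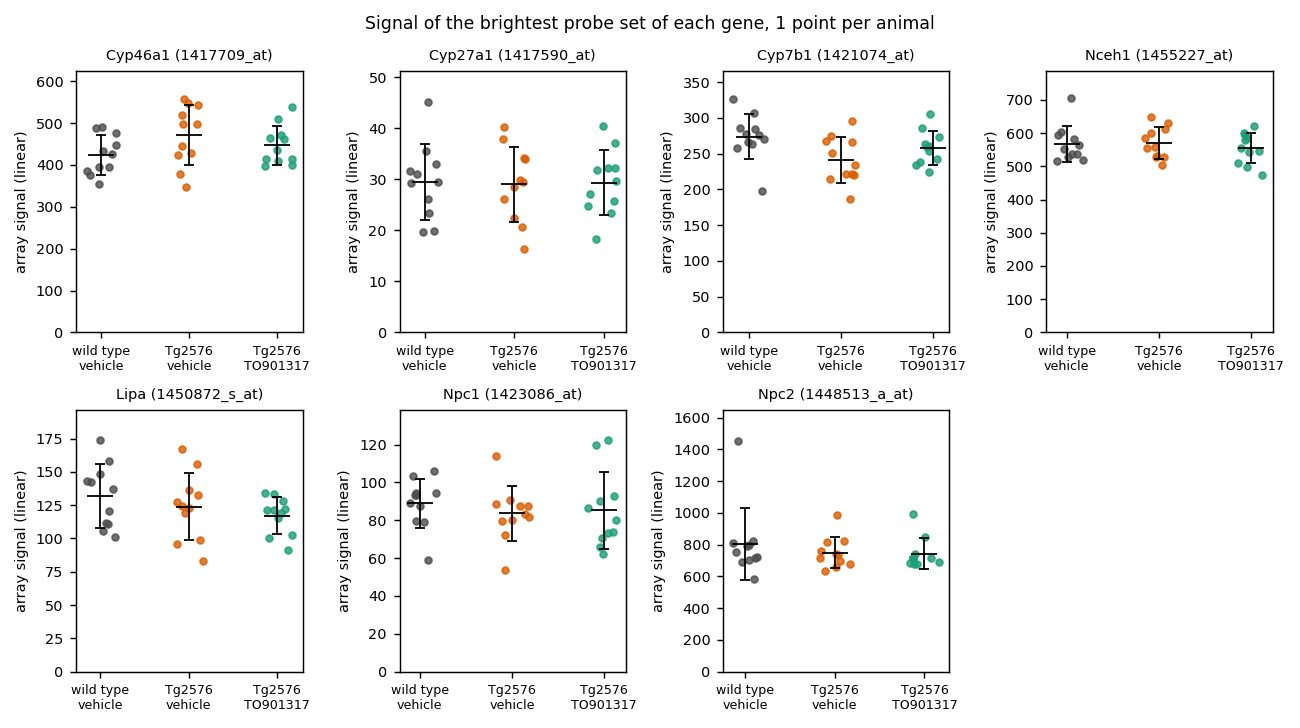
Array signal (linear, vertical axes from 0) of the brightest probe set of each of the 7 genes, 1 point per animal, with the mean and SD of each group of 11 as bars. The 3 groups overlap in every panel, and 1 wild-type animal stands far above the rest for Npc2, at 1455.

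Among the hydroxylases, Cyp46a1, the neuronal cholesterol 24-hydroxylase, is read by 1 probe set (1417709_at). In wild-type mice its signal had a lowest value of 354, a median of 426 and a highest of 491. In vehicle Tg2576 mice these were 347, 499 and 558, and in treated Tg2576 mice 398, 436 and 538. The groups overlapped over most of their range, although 8 of the 11 transgenic vehicle animals exceeded the wild-type median. The log2 difference of Tg2576 vehicle from wild type was 0.14 (SE 0.07, 95% interval -0.01 to 0.29, limma adjusted p 0.538). With the drug it was -0.07 (limma adjusted p 0.801), and treated Tg2576 mice differed from wild type by 0.07 (limma adjusted p 0.881). The interval of the drug difference ran from 0.862-fold to 1.057-fold. With the replicate number of the animals as a block, the genotype interval was 0.02 to 0.26 on the log2 scale (limma adjusted p 0.377).

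Cyp27a1, the mitochondrial sterol 27-hydroxylase, was dim, and its tested probe set (1417590_at) had nearly the same mean in each group: 29.5 ± 7.37 in wild-type, 29.04 ± 7.34 in vehicle Tg2576 and 29.4 ± 6.38 in treated Tg2576 mice (SD, n = 11 each). Single animals ranged from 16.3 to 45.2. The log2 differences were -0.016 for genotype, 0.016 for the drug and -0.0002 for treated Tg2576 against wild type, with limma adjusted p-values of 0.977, 0.974 and 0.999. Their intervals were wider than those of Cyp46a1, and that of the drug difference ran from 0.881-fold to 1.16-fold.

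Cyp7b1, the oxysterol 7-alpha-hydroxylase, showed the smallest adjusted p of the members in any comparison, and it did not pass. The signal of 1421074_at had a lowest value of 198, a median of 277 and a highest of 326 in wild-type mice. In vehicle Tg2576 mice these were 187, 234 and 295, and in treated Tg2576 mice 225, 260 and 306. Only 1 of the 11 transgenic vehicle animals exceeded the wild-type median, but the lowest wild-type animal lay among the lowest Tg2576 ones, so the groups overlapped. The genotype difference was -0.17 on the log2 scale (SE 0.07, 95% interval -0.31 to -0.04, unadjusted p 0.0145, limma adjusted p 0.371). With the drug the difference was 0.10 (limma adjusted p 0.649), with 9 of 11 treated animals above the median of vehicle Tg2576. The other probe set, 1421075_s_at, gave -0.11 for genotype (limma adjusted p 0.588) and 0.02 for the drug, the same signs at smaller sizes.

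With genotype, most markers of dentate gyrus granule cells had values on the same side as Cyp7b1, and 1 passed the test. The 7 measured markers summed to signals of 1709 to 2258 in wild-type, 1498 to 2098 in vehicle Tg2576 and 1520 to 2003 in treated mice. Of the 7, 1 fell with genotype, Tdo2, which encodes tryptophan 2,3-dioxygenase (log2 difference -0.77, limma adjusted p 0.00201), and the median of the 7 was -0.19, against 0.0066 over 12760 genes. C1ql2 went the other way with genotype, at 0.05. With the drug the median of the 7 markers was 0.11. Calb1, Prox1 and C1ql2 then went the other way from Cyp7b1, at -0.06, -0.04 and -0.14. With marker scores of choroid plexus, meninges, granule cells, and thalamus and striatum as covariates, the Cyp7b1 genotype difference was 0.016 (limma adjusted p 0.979). That of the other probe set was 0.037. The granule cell score holds Tdo2, which itself fell with genotype. Among animals of the same group, Cyp7b1 and that score had Pearson's r = 0.446 (adjusted permutation p 0.132). Spearman's rho was 0.466 (adjusted permutation p 0.0843). Whether granule cell content bears on the Cyp7b1 difference was not tested.

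**Figure D2:**
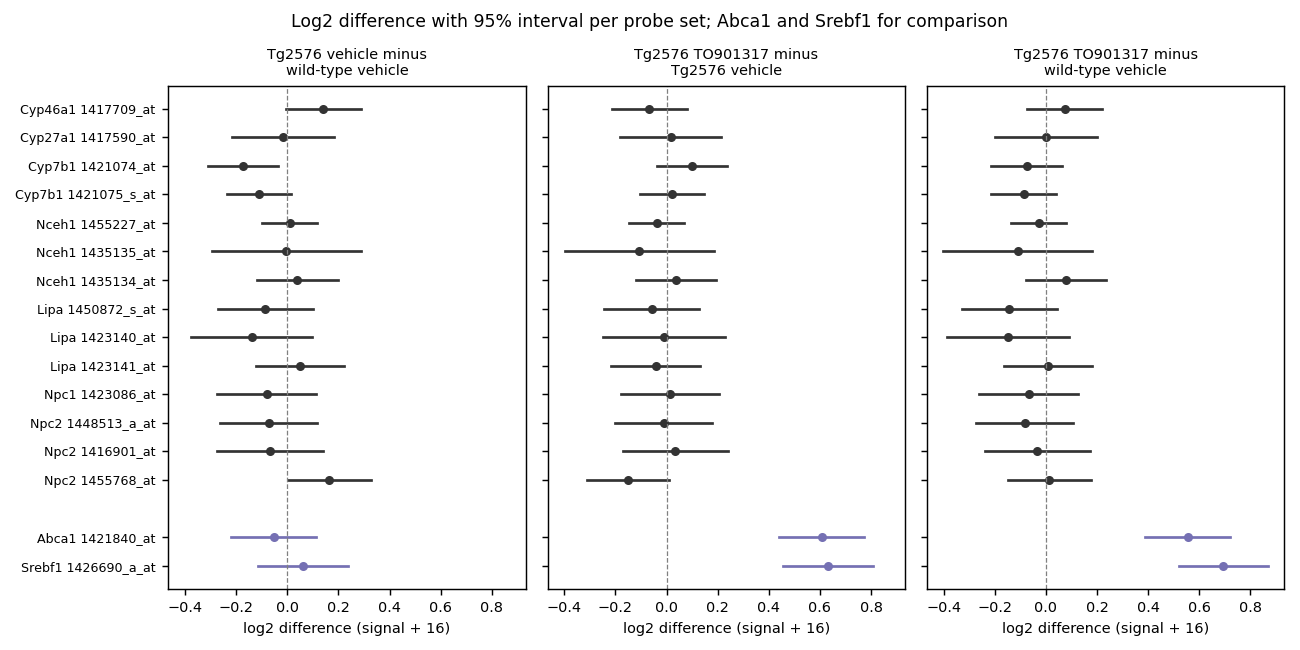
Log2 difference of signal + 16 with its 95% interval for each of the 14 tested probe sets in the 3 comparisons, and for Abca1 and Srebf1, known LXR targets. All 14 members lie between -0.17 and 0.16, while Abca1 and Srebf1 stand at 0.61 and 0.63 with the drug.

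Of the storage genes, Nceh1, the neutral cholesterol ester hydrolase, was steady on its brightest probe set (1455227_at). Its lowest, median and highest signals were 515, 553 and 705 in wild-type mice. They were 503, 557 and 650 in vehicle Tg2576 mice, and 475, 554 and 622 in treated Tg2576 mice. The 3 medians were 553 to 557 and the ranges overlapped almost wholly. The log2 differences were 0.01 for genotype, -0.04 for the drug and -0.03 for treated Tg2576 against wild type, and the interval of the drug difference ran from 0.904-fold to 1.05-fold. A second probe set of the same gene, 1435135_at, varied far more, from 283 to 705 over all groups. Its within-group SD stood at the 90.4th percentile of all tested probe sets, and that of 1455227_at at the 10.8th. This spread followed the replicate number. Animals numbered 6 to 8 ran from 666 to 705 in wild-type, 583 to 687 in vehicle Tg2576 and 656 to 699 in treated mice, while the others reached at most 635, 603 and 537. The number took up 73.5% of the within-group sum of squares of 1435135_at, the 99.1th percentile of all tested probe sets, whose median was 36.8%. For the other 13 member probe sets this share was 14.8% to 56.8%, highest for Cyp46a1, and for 1455227_at it was 19.5%. The labels do not say what the numbers stand for. The drug difference of 1435135_at was -0.11 with an interval reaching -0.40, and with the replicate number as a block the interval was -0.28 to 0.07 (limma adjusted p 0.678). The dimmer 1435134_at had means of 71.5, 73.9 and 75.6 in the 3 groups.

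Lipa, the lysosomal acid lipase, had its highest signals in wild-type mice, without passing the test. For 1450872_s_at the lowest, median and highest values were 101, 137 and 174 in wild-type mice, 82.8, 125 and 167 in vehicle Tg2576 mice, and 91.0, 121 and 134 in treated mice. None of the 11 treated animals (0 of 11) lay above the wild-type median, yet the lower part of the wild-type range overlapped the treated one. The log2 differences were -0.09 for genotype, -0.06 for the drug and -0.14 for treated Tg2576 against wild type, with limma adjusted p-values of 0.823, 0.878 and 0.748. With the same marker scores as covariates as for Cyp7b1, the genotype difference of 1450872_s_at was 0.14, of the opposite sign. The dim probe set 1423140_at had means of 32.7, 28.1 and 27.2, which lay in the same order. The dim 1423141_at, with means of 20.5, 21.9 and 20.5, did not show that order. Over 46 alternatives of processing, these covariates among them, neither dim probe set changed the sign of its genotype difference. It ran from -0.26 to -0.07 for 1423140_at and from 0.01 to 0.25 for 1423141_at.

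Of the export genes, Npc1, the sterol-sensing membrane protein of the late endosome and lysosome, had 1 probe set (1423086_at). Wild-type animals had a median signal of 93.5 (lowest 59.2, highest 106), vehicle Tg2576 animals one of 83.3 (53.9 to 114) and treated animals one of 80.3 (62.2 to 122). The 3 ranges covered one another closely, although only 1 of 11 vehicle Tg2576 and 2 of 11 treated animals exceeded the wild-type median. The log2 differences were -0.08 for genotype, 0.01 for the drug and -0.07 for treated Tg2576 against wild type. Their limma adjusted p-values were 0.845, 0.976 and 0.929. Under 48 alternatives of processing the genotype difference ran from -0.28 to -0.03 and did not pass.

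Npc2, the soluble sterol carrier of the lysosome, had medians of 755 in wild-type, 735 in vehicle Tg2576 and 716 in treated Tg2576 mice on 1448513_a_at. Wild-type animals ran from 585 to 1455, vehicle Tg2576 animals from 633 to 986 and treated animals from 676 to 995, so the groups overlapped. The top value, 1455, came from wild-type replicate 10, and the highest of the other wild-type animals was 825. The log2 differences were -0.07 for genotype and -0.01 for the drug, and without wild-type replicate 10 the genotype difference was 0.02. The second bright probe set, 1416901_at, gave -0.07 and 0.03, with the same animal highest at 1189. Another, dim probe set, 1455768_at, had means of 36.3, 42.8 and 36.9 in the 3 groups. Its genotype difference was 0.16 (unadjusted p 0.045, limma adjusted p 0.502), opposite in sign to the bright pair, and 9 of the 11 transgenic vehicle animals exceeded the wild-type median. Its drug difference was -0.15 (limma adjusted p 0.51).

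Over the 14 tested probe sets, 5 were nominally higher and 9 lower with genotype, 6 higher and 8 lower with the drug, and 4 higher and 10 lower in treated Tg2576 against wild type. The median differences were -0.04, -0.01 and -0.05 on the log2 scale, against 0.0003, 0.0037 and 0.0055 over all tested probe sets. The median size of a difference, whatever its sign, was 0.08, 0.04 and 0.07 for the members and 0.07, 0.07 and 0.06 over all. The widest intervals of the members reached 0.77-fold and 1.25-fold with genotype and 0.759-fold and 1.18-fold with the drug. The other 3 probe sets, 1 each of Cyp27a1, Cyp7b1 and Npc2, had means of 2.8 to 4.8 and no array above 14.6. With no filter on dim probe sets, 0 of 17 passed.

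The genes that surround these members in sterol metabolism were described from lists by role. Of 10 tested genes of oxysterol and bile acid metabolism, 0 passed in each comparison, with median log2 differences of -0.04, -0.004 and -0.02 for genotype, drug and treated against wild type. Over all 12760 genes these medians were 0.0066, -0.01 and -0.0025, with 0.102%, 0.0705% and 0.0862% of genes called higher and 0.102%, 0.11% and 0.094% lower. Ch25h, the cholesterol 25-hydroxylase, had the smallest p of this list with the drug, with means of 15.3, 13.3 and 22.9 in wild-type, vehicle Tg2576 and treated mice, a log2 difference of 0.47 and a limma adjusted p of 0.267. For genotype it was Sult2b1, a sterol sulfotransferase, at 0.35 (limma adjusted p 0.399). Of 13 tested genes of sterol esters and lipid droplets, 0 passed in each comparison, with medians of -0.06, -0.01 and 0.05. Lcat, which esterifies cholesterol on lipoproteins, had means of 166 ± 24.4, 153 ± 21.3 and 125 ± 26.2 (SD, n = 11 each). Its log2 difference was -0.27 with the drug (limma adjusted p 0.228) and -0.37 for treated Tg2576 against wild type (limma adjusted p 0.0593, below the limit in 5 of 48 alternatives). In the genotype comparison the smallest p of that list was that of Dgat2, a triglyceride-synthesising enzyme, at -0.10 (limma adjusted p 0.573).

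Of 30 tested genes of lysosomal sterol handling and of sterol transfer outside the lysosome, 0 passed in each comparison, with medians of 0.02, -0.01 and -0.01. Stard4, a cytosolic sterol carrier, came nearest with genotype, with means of 99.2 ± 21.9, 146 ± 35.2 and 123 ± 21.4 (SD, n = 11 each). Its log2 difference was 0.48 for genotype (limma adjusted p 0.0736, below the limit in 6 of 48 alternatives) and 0.28 (limma adjusted p 0.468) for treated Tg2576 against wild type. Psap, the precursor of the lysosomal saposins, had means of 3457, 3053 and 3546 and a drug difference of 0.22 (limma adjusted p 0.0968). The 7 tested genes of sterol efflux and LXR, which hold the receptor's known targets, differed from these lists in their counts: 0 passed with genotype, 3 rose with the drug and 2 rose in treated Tg2576 against wild type, with 0 lower in each. Besides Abca1 and Srebf1, Abcg1, another sterol exporter, stood at 0.42 with the drug (limma adjusted p 0.000979, but 0.167 without the 11 arrays high in choroid plexus markers and 0.0511 by the rank-sum test), and its genotype difference was -0.19 (limma adjusted p 0.268). The medians of these 7 genes were -0.05, 0.25 and 0.14.

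Among animals of the same group, the 7 genes were compared with each other by the deviations of their brightest probe sets from the group means, over 33 arrays with permutations within groups. Pearson's r ran from -0.365 to 0.439 over 21 pairs, 13 of them above 0. After Benjamini-Hochberg adjustment over the 21 pairs, 0 passed on both Pearson's r and Spearman's rho. The highest was between Cyp27a1 and Npc1, with r = 0.439 (adjusted permutation p 0.253) and rho = 0.30 (adjusted permutation p 0.919).

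**Figure D3:**
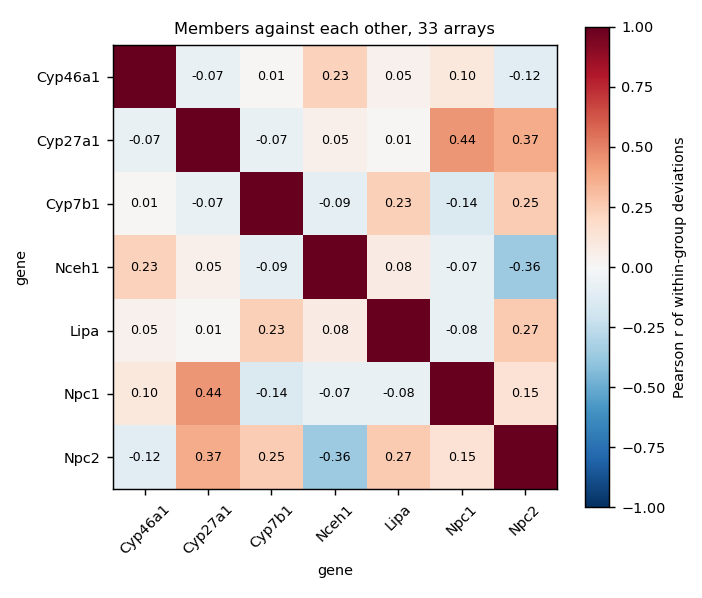
Pearson's r between the brightest probe sets of the 7 genes, from deviations of log2(signal + 16) from the group means over 33 arrays. The highest cell off the diagonal is Cyp27a1 with Npc1 at 0.439, and the lowest is Nceh1 with Npc2 at -0.365.

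Probe sets of a single gene did not always rank the animals alike. The bright pair of Npc2 did, with r = 0.862 (adjusted permutation p 0.0001) and rho = 0.659 (adjusted permutation p 0.001) over 10 same-gene pairs, and r = 0.65 without wild-type replicate 10 and treated replicate 1. The Cyp7b1 pair had r = 0.424 (adjusted permutation p 0.0487) and rho = 0.414 (adjusted permutation p 0.129). The 3 Nceh1 pairs had r of -0.296, -0.085 and -0.028, and the 3 Lipa pairs 0.331, 0.068 and -0.204. Several of these probe sets are dim, and why they differ was not tested.

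The genes whose deviations were most like each member's were ranked by Pearson's r over the same 33 arrays. For Cyp46a1 they were Syngr1 (0.808), Atxn7l3 (0.80) and Clip3 (0.798). For Cyp27a1 they were Grb14 (0.708), Tspan2 (0.705) and Zfp275 (0.698), and for Cyp7b1 Tanc1 (0.713), Serpina3n (0.71) and Cops7a (0.685). Nceh1 was most like Asph (0.731), Ube2n (0.726) and Lpgat1 (0.698), and Lipa most like Yju2 (0.733), Ppm1f (0.729) and Fastkd1 (0.719). Npc1 was most like Csrp1 (0.683) and the myelin genes Mobp (0.681) and Mal (0.681), and Npc2 most like Gadd45g (0.841), Gas6 (0.823) and Slc4a2 (0.787). Spearman's rho with Npc2 was 0.797 for Gadd45g but 0.543 for Gas6 and 0.505 for Slc4a2, and it ran from 0.542 to 0.784 for the 18 neighbours of the other members. These are the top 3 of 12760 genes each, and no p is given for a top rank.

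Marker scores of the cell types that hippocampal tissue holds were set against the members in the same way, in 56 tests, and 0 passed on both coefficients after adjustment. The highest was Npc1 with the oligodendrocyte score, with r = 0.692 (adjusted permutation p 0.00056) and rho = 0.547 (adjusted permutation p 0.0703). It was r = 0.662 without the 2 arrays farthest from the median score, 0.654 within replicates 1 to 5 and 0.508 within replicates 6 to 11. Cyp27a1 with the same score had r = 0.573 (adjusted permutation p 0.0161) and rho = 0.511 (adjusted permutation p 0.0703), with r = 0.442 without the same 2 arrays and 0.479 and 0.706 within the 2 sets of replicates. Nceh1 with the neuron score had r = 0.605 (adjusted permutation p 0.00784) and rho = 0.507 (adjusted permutation p 0.0703), with r = 0.455 without the 2 farthest arrays and 0.69 and 0.492 within the 2 sets. Cyp46a1 with the neuron score had r = 0.496 and rho = 0.511 (adjusted permutation p 0.0883 and 0.0703). Its r was lower within the sets, at 0.284 within replicates 1 to 5 and 0.159 within replicates 6 to 11. With so few arrays in each set, the split cannot tell whether this relation holds within them. The oligodendrocyte markers summed to 7935 to 12040 in wild-type, 6305 to 11320 in vehicle Tg2576 and 8268 to 11700 in treated mice, and 0 of 6 passed in the group comparisons. Their median log2 differences were -0.18 with genotype, 0.14 with the drug and -0.05 for treated Tg2576 against wild type. Over all genes these medians were 0.0066, -0.01 and -0.0025. Whether oligodendrocyte content bears on the Npc1 and Cyp27a1 values was not tested. The scores used as covariates were those of choroid plexus, meninges, granule cells, and thalamus and striatum, not the oligodendrocyte or neuron score. With these covariates, 0 of 14 member probe sets passed in each comparison.

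Choroid plexus markers differed widely between animals, and Npc2 was highest where they were highest. The summed signal of 7 choroid plexus markers ran from 392 to 9911 in wild-type, 198 to 7285 in vehicle Tg2576 and 962 to 8452 in treated mice, with the highest sums in wild-type replicate 10, vehicle Tg2576 replicate 11 and treated replicate 1. These are also the highest arrays of Npc2 in their groups. The scores fell into a set of 22 low arrays and a set of 11 high arrays (3 wild-type, 3 vehicle Tg2576 and 5 treated), so no pooled coefficient is given. Npc2 had a lowest, median and highest signal of 660, 718 and 817 in the 22 low arrays and of 585, 825 and 1455 in the 11 high ones. Within the high arrays Npc2 and the score had r = 0.92 (adjusted permutation p 0.0457) and rho = 0.755 (adjusted permutation p 0.165), and r = 0.813 without the 2 arrays farthest from the median. Within the low arrays r was -0.21. Nceh1 ran the other way, with r = -0.626 and rho = -0.727 within the low arrays (adjusted permutation p 0.0214 and 0.00574) and r = -0.729 and rho = -0.718 within the high ones (adjusted permutation p 0.0457 and 0.165), over 14 tests. In low arrays of vehicle Tg2576, replicates 1 to 4 scored -1.27 to -1.04, with Nceh1 at 585 to 650. Replicates 6, 7, 8 and 10 scored -0.72 to -0.11, with Nceh1 at 527 to 557. Over all groups the replicate number took up 19.5% of the within-group sum of squares of this Nceh1 probe set. No split by number was made here, and whether the number bears on this relation was not tested. Without the 11 high arrays, 0 of 14 member probe sets passed in each comparison.

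**Figure D4:**
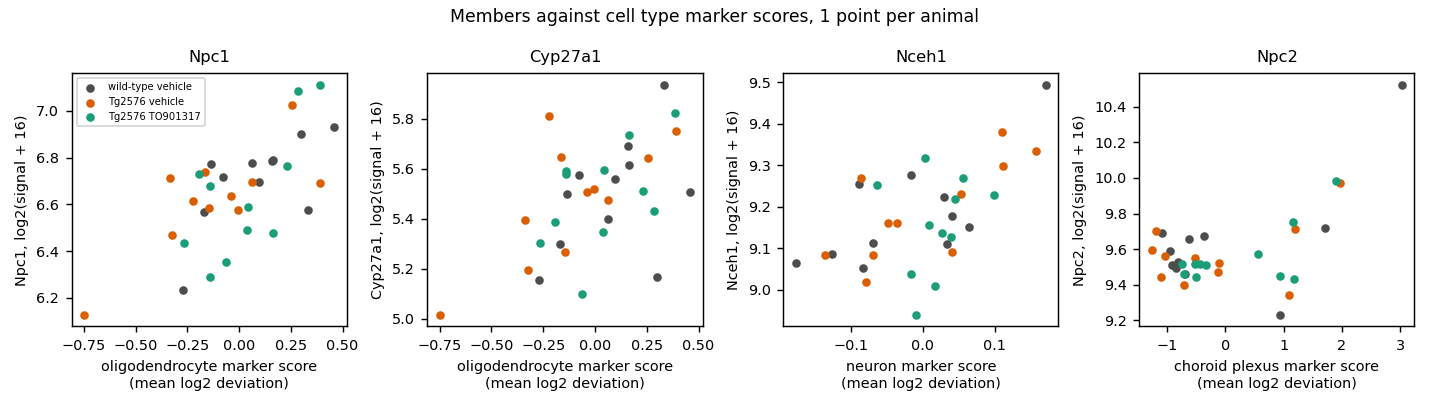
Log2(signal + 16) of Npc1 and Cyp27a1 against the oligodendrocyte score, Nceh1 against the neuron score and Npc2 against the choroid plexus score, 1 point per animal, coloured by group. The score is the mean log2 deviation of the markers. Npc2 runs from 660 to 817 in the 22 low arrays and is highest, at 1455 in linear signal, in the array with the highest choroid plexus score.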

How the data were processed

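The authors' deposited values are MAS5 intensity on a linear scale, 1 column per animal, per the submitters' processing notes. Its version and settings: not given in the sources used here. Groups came from the labels. The labels number separate animals, and the number of arrays limits the precision.

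Of 45101 probe sets, 64 controls were left out. The platform annotation, which can be old, named 1 gene for 34945 probe sets, several for 932 and none for 9160. The lowest 40 percent by mean log2(signal + 16), up to a signal of 13.3, were not tested, which left 27022. Fold changes are on this scale and understate changes of dim genes. A single linear model of the 3 groups (limma 3.58.1, R 4.3.3, trend and robust) took in every array, with Benjamini-Hochberg adjustment and a limit of 0.05. A gene in a list stands by its brightest probe set. Coefficients used 100000 permutations within groups. The same-gene pairs, marker scores and choroid plexus splits were added after seeing the data. Of these steps, the linear model fit and the rank-sum test were tested on simulated data.

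The members, the 4 pathway lists and the 10 marker lists were chosen with earlier results of these data known. Named genes are the members, Abca1 and Srebf1, App and Prnp, called list members and otherwise the list member of smallest p, and the 3 nearest genes per member.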

Additional observations from a re-analysis of the deposited data

How the results depend on the processing

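Under 48 alternatives the count of member probe sets that passed was 0 in each of the 3 comparisons, and over 1983 recomputed member differences none passed either. These alternatives covered the pseudocount, scaling, filter, an exact rank-sum test, covariates, fits on fewer groups, the replicate block and leaving out each animal in turn. The smallest adjusted p was 0.184, for Cyp7b1 1421074_at with genotype without wild-type replicate 7. Signs were less steady: 121 of the 1983 values changed sign, in 29 of 42 member results, none of which had passed the test. The whole-table counts behind the background were 43, 38 and 39 for genotype, drug and treated against wild type. Leaving out 1 animal moved them to 25 to 58, 14 to 51 and 25 to 62. The genotype count was 25 with only the groups compared, 66 with a Gapdh covariate and 21 by the rank-sum test, and the treated against wild-type count was 59 with the Gapdh covariate and 62 with the lowest 60 percent removed. The marker scores of choroid plexus, meninges, granule cells, and thalamus and striatum as covariates gave 1, 13 and 12. Leaving out the 11 arrays high in choroid plexus markers gave 15, 2 and 4. The rank-sum test gave 2 for the drug, and leaving out vehicle Tg2576 replicates 3 and 4 gave 9 for the drug. The drug effect on Abca1 had an adjusted p of 0.0536 by the rank-sum test, that on Abcg1 0.0511 by the rank-sum test and 0.167 without the 11 arrays, and that on Srebf1 0.094 without them. Stard4 with genotype passed in 6 alternatives (adjusted p from 0.00413 to 0.457), and Lcat in treated against wild type in 5 (from 0.0331 to 0.738); the cause was not tested. With the replicate number as a block the whole-table counts were 50, 38 and 42 and the members' counts 0. Same-numbered animals of different groups had a median correlation of deviations of 0.0852, against -0.0154 over 330 pairs of unlike number. Of the 33 same-numbered pairs, 13 were over 0.1, and 4 of 33 arrays were closest to their own number. The numbers were not taken as pairing, although same-numbered arrays were somewhat more alike and Nceh1 1435135_at followed the numbers.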

Other observations

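A few markers of the other cell types that the tissue could hold passed the test, a larger share than over all genes. The lists were chosen with earlier results of these data known, so that larger share is not separate evidence. Of 63 tested markers in 10 lists, 1 rose and 2 fell with genotype, 1 rose with the drug, and 1 fell in treated Tg2576 against wild type, beside 0.102%, 0.0705% and 0.0862% of 12760 genes called higher and 0.102%, 0.11% and 0.094% lower. Besides Tdo2, the astrocyte bicarbonate transporter Slc4a4 fell with genotype by 0.27 and in treated Tg2576 against wild type by 0.29 on the log2 scale (limma adjusted p 0.00279 and 0.000938). Lyz2, a lysozyme of macrophages, rose with genotype by 0.62 (limma adjusted p 0.0322), and Slco1a4, which carries organic anions across the brain endothelium, rose with the drug by 0.42 (limma adjusted p 0.0252). The 2 blood markers measured, Hba-a1 and Alas2, were below the filter, with a highest summed signal of 27.5.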
